A study of Homo sapiens with 12 samples.

Results

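The genes that control the sterol regulatory element-binding proteins (SREBPs) were followed in HCT116 cells, an established human colorectal carcinoma line. The 8 genes, like the gene lists below, were chosen by name with earlier results of these data known. They are SREBF1, SREBF2, SCAP, INSIG1, INSIG2, MBTPS1, MBTPS2 and the sterol carrier gene STARD4. All 8 were found among the 18969 genes listed, all 8 passed the filter on low counts, and no lipoprotein receptor is among them. RNA was sequenced in 12 libraries in 3 groups of 4. Cells of both recovery groups were kept for 24 h without methionine, in DMSO (the vehicle) or in UNC0642, and were returned for a further 24 h to complete medium that held no inhibitor. UNC0642 is a small molecule that blocks G9a and GLP (EHMT2 and EHMT1), which are among the enzymes that methylate lysine 9 of histone H3. The third group is labelled 0 h, and the labels do not say whether its cells had already been through the restriction.

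SREBP-1 (from SREBF1) and SREBP-2 (from SREBF2) are made as membrane proteins of the endoplasmic reticulum (ER), bound to the escort protein SCAP. When sterols are plentiful, INSIG proteins hold SCAP in the ER; when sterols are scarce, COPII vesicles carry the complex to the Golgi, where the site-1 and site-2 proteases (MBTPS1 and MBTPS2) release the part that enters the nucleus. There SREBP-2 mainly switches on genes of sterol synthesis and uptake and SREBP-1 genes of fatty acid synthesis, and INSIG1, SREBF2 and STARD4 are themselves known SREBP targets. Only transcripts were measured here, not SREBP cleavage or sterols.

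The 250 bases before the annotated start of each member were searched on both strands for 4 runs of letters: the SREBP site TCACNCCAC, the NF-Y box CCAAT, the E-box CACGTG and the GC box GGGCGG. NF-Y and Sp1, which binds GC boxes, are known to act beside SREBPs. The 4 windows shown are those of the members whose transcripts rose after recovery. They come from RefSeq on GRCh38.p14 and are written 5′ to 3′ on the gene's strand. Capitals mark an SREBP site, an NF-Y box or an E-box on either strand (an NF-Y box on the opposite strand reads ATTGG), and GC boxes stay in lower case. The windows are SREBF2 at chr22:41832855-41833104 on the plus strand, INSIG1 at chr7:155297628-155297877 on the plus strand, STARD4 at chr5:111512536-111512785 on the minus strand and SREBF1 at chr17:17836987-17837236 on the minus strand.
SREBF2: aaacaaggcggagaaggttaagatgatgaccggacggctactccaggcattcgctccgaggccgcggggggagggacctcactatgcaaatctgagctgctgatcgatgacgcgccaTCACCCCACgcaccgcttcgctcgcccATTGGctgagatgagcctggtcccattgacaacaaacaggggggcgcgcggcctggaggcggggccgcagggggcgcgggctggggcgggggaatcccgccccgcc
INSIG1: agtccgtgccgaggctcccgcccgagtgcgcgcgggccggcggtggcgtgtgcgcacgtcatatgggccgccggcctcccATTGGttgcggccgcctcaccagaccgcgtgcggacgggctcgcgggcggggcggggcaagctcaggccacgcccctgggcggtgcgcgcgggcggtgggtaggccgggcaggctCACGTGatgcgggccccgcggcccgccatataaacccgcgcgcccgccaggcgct
STARD4: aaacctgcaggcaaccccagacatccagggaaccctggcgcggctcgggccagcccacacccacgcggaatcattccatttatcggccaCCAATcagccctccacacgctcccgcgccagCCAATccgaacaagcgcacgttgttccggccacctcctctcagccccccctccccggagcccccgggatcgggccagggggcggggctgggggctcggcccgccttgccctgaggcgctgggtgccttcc
SREBF1: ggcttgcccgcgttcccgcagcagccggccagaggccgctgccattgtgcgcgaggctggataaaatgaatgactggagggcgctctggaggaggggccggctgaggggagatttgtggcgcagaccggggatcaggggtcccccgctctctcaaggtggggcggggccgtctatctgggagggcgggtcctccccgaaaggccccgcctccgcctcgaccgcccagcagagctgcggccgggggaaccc

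SREBF2 was the only member with the SREBP site letters, 133 bases before its start, with an NF-Y box 106 bases before it. Those site letters occur in 310 of 35116 windows of this length, or 0.883%. The INSIG1 window held 1 NF-Y box and 1 E-box, at 170 and 55 bases before the start, and 5 GC boxes. The STARD4 window held 2 NF-Y boxes, at 161 and 130 bases, and 1 GC box. NF-Y letters were in 32% of all windows and E-box letters in 6.34%. The SREBF1 window held only GC boxes, 3 of them, which occur in 42.6% of windows. Of the 4 members not shown, SCAP had 1 E-box and 3 GC boxes, and INSIG2 had 1 GC box, which its 2 overlapping windows share. MBTPS1 and MBTPS2 had none of these letters. A match is a run of letters, not a measured binding site, and no match describes only this window.

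**Figure D1:**
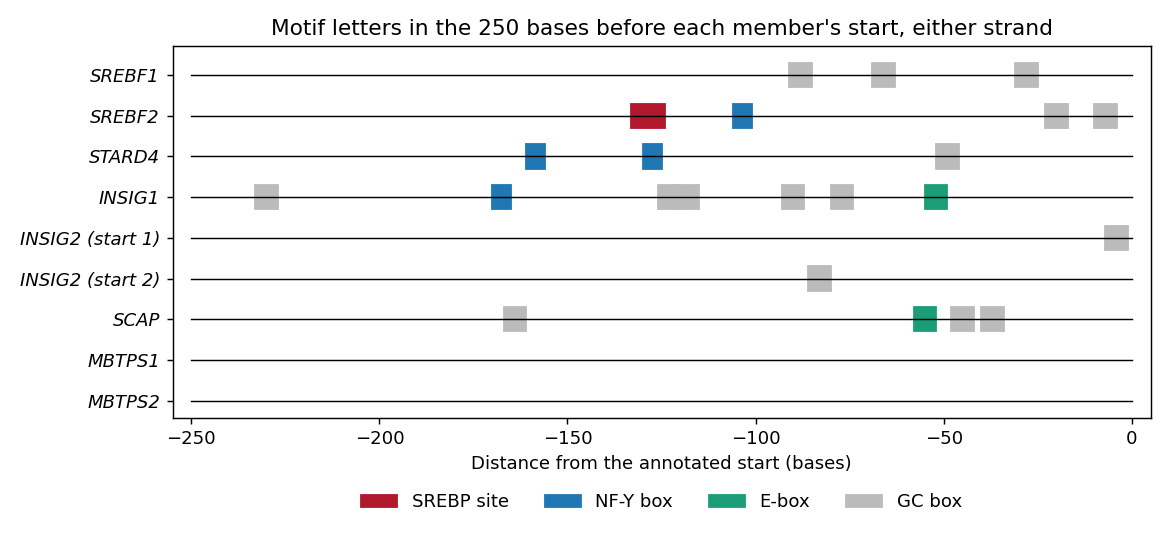
Motif letters in the 250 bases before each member's annotated start, on either strand; the horizontal axis gives the distance from the start in bases and each coloured block is 1 match. The SREBP site appears only on the SREBF2 line, and NF-Y boxes on the SREBF2, STARD4 and INSIG1 lines.

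Library totals ran from 14658082 to 20179847 counts, and 12741 genes were tested. No label says that the 4 replicates of a group came from separate cultures, so p-values measure only the spread between these libraries, which may be technical. The epithelial markers EPCAM, CDH1, KRT8, KRT18 and KRT19 were detected in all 12 libraries (EPCAM at 294 to 325 CPM, counts scaled to the size of each library), whereas VIL1 was at most 0.351 CPM and had counts in only 5. The 12 markers fixed for blood, fibroblast and endothelium had summed levels of 29.1 to 51.1 CPM at 0 h, 36.9 to 46.9 in the DMSO and 40.7 to 46.8 in the UNC0642 group, of which COL1A1 gave 18.9 to 31.6. PTPRC was at most 0.124 CPM, and CDH5 had counts in 1 library. Of the 9 tested, 2 rose and 5 fell after DMSO recovery, 3 rose and 2 fell after UNC0642 recovery, by edgeR. In each of these comparisons DESeq2 called 1 higher and 2 lower, and limma-voom 2 and 2. Between the recovery groups 0 were called by edgeR, an unadjusted p under 0.05, DESeq2 or limma-voom. In 6 libraries, the COL1A2 libraries hereafter, COL1A2 was above 1 CPM (0 h replicates 1, 2 and 3, DMSO replicate 1, UNC0642 replicates 3 and 4). Without these 6, 0 h replicate 4 is the only 0 h library left. Every comparison or count against 0 h without them rests on that library and takes its spread from the other groups. Libraries also fell apart by how far the counting program's effective lengths lay below the gene lengths: this gap was short in 5 (0 h 3 and 4, DMSO 1, UNC0642 1 and 4) and long in the other 7.

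Levels of different genes were compared by the deposited FPKM, which scales fragments to gene length and library size. At 0 h MBTPS1 was highest, at 40.2 ± 1.56 FPKM (SD, n = 4), followed by SREBF1 at 36.4 ± 0.984, SREBF2 at 29.9 ± 1.17, SCAP at 22.1 ± 0.869 and INSIG1 at 12.9 ± 0.418. The lowest were MBTPS2 at 7.57 ± 0.681, STARD4 at 6.60 ± 0.542 and INSIG2 at 5.15 ± 0.387. In that order only MBTPS2 and STARD4 overlapped as neighbours over the 4 libraries. After DMSO recovery the transcription factor genes led, with SREBF2 at 44.0 ± 0.500 and SREBF1 at 44.0 ± 1.02, which overlapped, above MBTPS1 at 39.9 ± 0.941. INSIG1, at 28.0 ± 0.685 FPKM, then stood above SCAP, at 23.1 ± 0.302. After UNC0642 recovery every SREBF1 library (44.2 ± 1.59) was above every MBTPS1 library (40.8 ± 0.113), and SREBF2 (40.8 ± 1.198) overlapped both. INSIG1, at 19.0 ± 1.33 FPKM, was again below SCAP, at 23.6 ± 0.272. INSIG2 was the lowest of the 8 in all 3 groups.

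After DMSO recovery 4 of the 8 members were higher than at 0 h (SREBF1, SREBF2, INSIG1 and STARD4) and 4 were not called (SCAP, INSIG2, MBTPS1 and MBTPS2), by edgeR's quasi-likelihood F-test at an adjusted p under 0.05. In that comparison 44.1% of all genes tested were called, 22.4% as higher and 21.7% as lower. The same 4 rose in the UNC0642 group, where 47% of all genes were called, 23.4% as higher and 23.6% as lower. No member was called lower in either. At an unadjusted p under 0.05, 1 was lower after DMSO recovery (MBTPS1) and 0 after UNC0642 recovery; DESeq2 called the same numbers, 1 and 0, and limma-voom 0 in both. Over the 8 members the median log2 fold change was 0.13 with DMSO and 0.19 with UNC0642, beside 0.01 over all genes in each. The libraries of SREBF1, SREBF2, INSIG1 and STARD4 did not overlap with those at 0 h in either comparison, which held for 38.3% and 40.2% of all genes. Set against DMSO recovery, 2 members were lower with UNC0642 (INSIG1 and SREBF2), where 4.58% of all genes were called, 2.53% as lower and 2.06% as higher, and the median over the members was 0.01. These 2 also did not overlap between the recovery groups, which held for 10.5% of all genes. No member was higher there, by an unadjusted p under 0.05, DESeq2 or limma-voom (0 in each). Both recovery groups are set against the same 4 libraries of 0 h, so those comparisons are not independent. Restriction, recovery, vehicle and time in culture cannot be told apart in them.

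**Figure D2:**
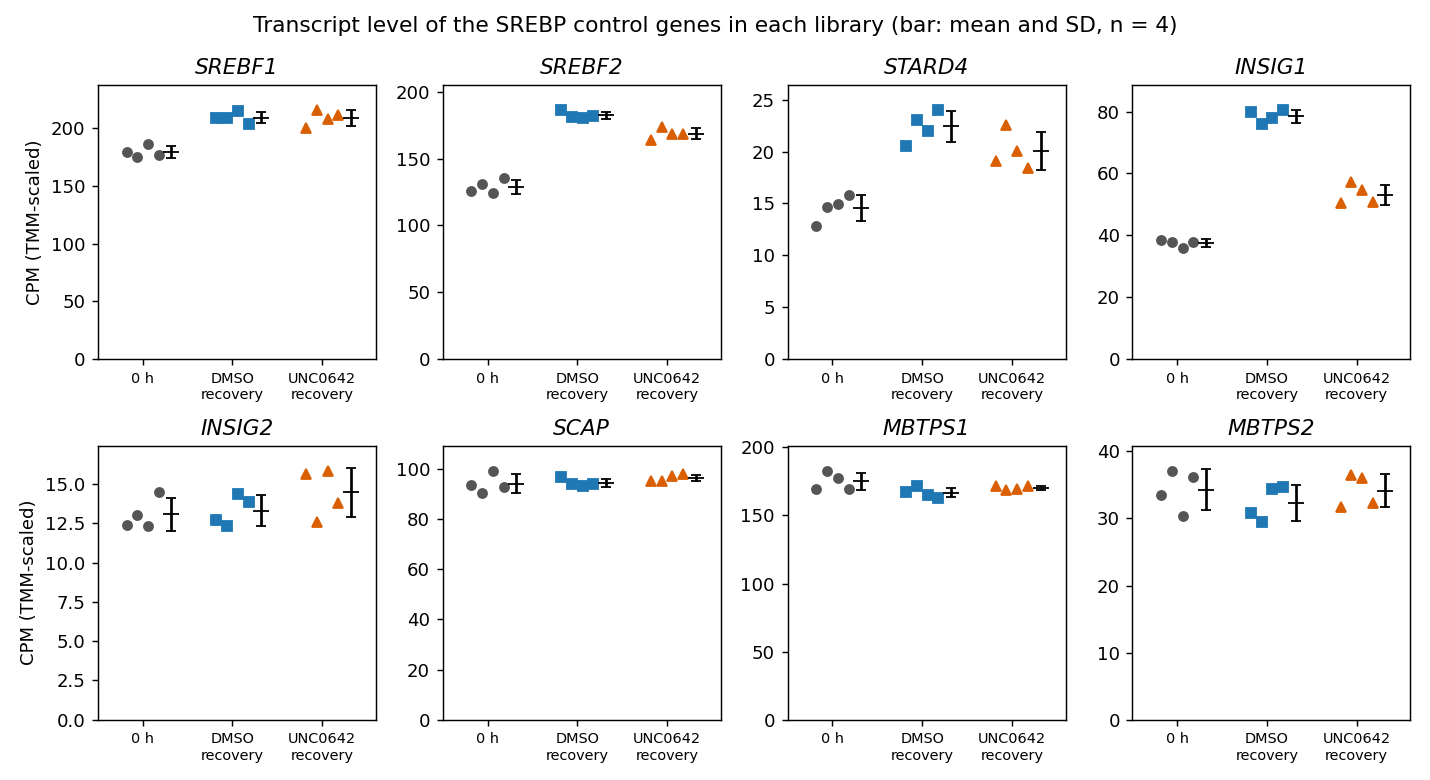
CPM scaled by TMM (vertical axes, from 0) of each member in each of the 12 libraries; circles are 0 h, squares DMSO recovery, triangles UNC0642 recovery, and bars the mean and SD of 4. INSIG1 forms 3 separate levels, near 37.5, 78.6 and 53.2 CPM, while the groups of INSIG2, SCAP and MBTPS2 overlap.

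INSIG1 encodes the INSIG whose transcript is strongly driven by SREBPs, a feedback that restores retention of SCAP. Its levels at 0 h were 38.6, 37.9, 35.8 and 37.7 CPM in replicates 1 to 4. After DMSO recovery they were 79.8, 75.8, 78.0 and 80.6 CPM, and after UNC0642 recovery 50.4, 57.1, 54.5 and 50.7 CPM. No 2 of the 3 groups overlapped, with DMSO highest, UNC0642 between and 0 h lowest. DMSO recovery was 2.09-fold above 0 h (log2 fold change 1.07 ± 0.05, SE; edgeR adjusted p = 1.06e-18), 12th among all genes by p, whereas UNC0642 recovery was 1.42-fold above (0.50 ± 0.05; edgeR adjusted p = 2.70e-10). Set directly against each other, UNC0642 recovery was 1.48-fold lower than DMSO recovery (log2 fold change -0.56 ± 0.04; edgeR adjusted p = 2.10e-11), again 12th by p. Within the long-gap libraries the log2 differences were 1.03, 0.55 and -0.49 in the same order, all called. Within the short-gap ones they were 1.12, 0.46 and -0.66, where DMSO replicate 1 is alone in its class and takes its spread from the other libraries. Without the 6 COL1A2 libraries, where 0 h replicate 4 is the only 0 h library left, they were 1.05, 0.50 and -0.54. In bulk RNA, fewer cells expressing a gene and less RNA per cell cannot be told apart.

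INSIG2, the paralog that also retains SCAP and is less tied to SREBPs, was near 13 to 14 CPM throughout. Its libraries ran from 12.3 to 14.5 CPM at 0 h, from 12.3 to 14.4 with DMSO and from 12.6 to 15.9 with UNC0642. The groups overlapped in all 3 comparisons and none was called. The 95% intervals of its log2 fold changes, -0.15 to 0.21 after DMSO recovery, -0.02 to 0.33 after UNC0642 recovery and -0.05 to 0.29 between them, exclude a change as large as that of INSIG1. With library totals in place of scaling factors INSIG2 was called after UNC0642 recovery (0.21; edgeR adjusted p = 0.0438), and without the 6 COL1A2 libraries its log2 difference was -0.04.

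INSIG1 transcripts per INSIG2 transcript, as a ratio of FPKM, came to 2.51 ± 0.187 at 0 h, 5.14 ± 0.347 with DMSO and 3.22 ± 0.495 with UNC0642 (SD, n = 4). The nearest libraries of the 0 h and UNC0642 groups were at 2.72 and 2.80, so the groups were apart by little there. Both INSIG transcripts together, per SCAP transcript, came to 0.819 ± 0.0562, 1.45 ± 0.0470 and 1.06 ± 0.0520 in the same order. INSIG transcripts were fewer than SCAP transcripts at 0 h and more numerous after DMSO recovery. These ratios are descriptions and were not tested.

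**Figure D3:**
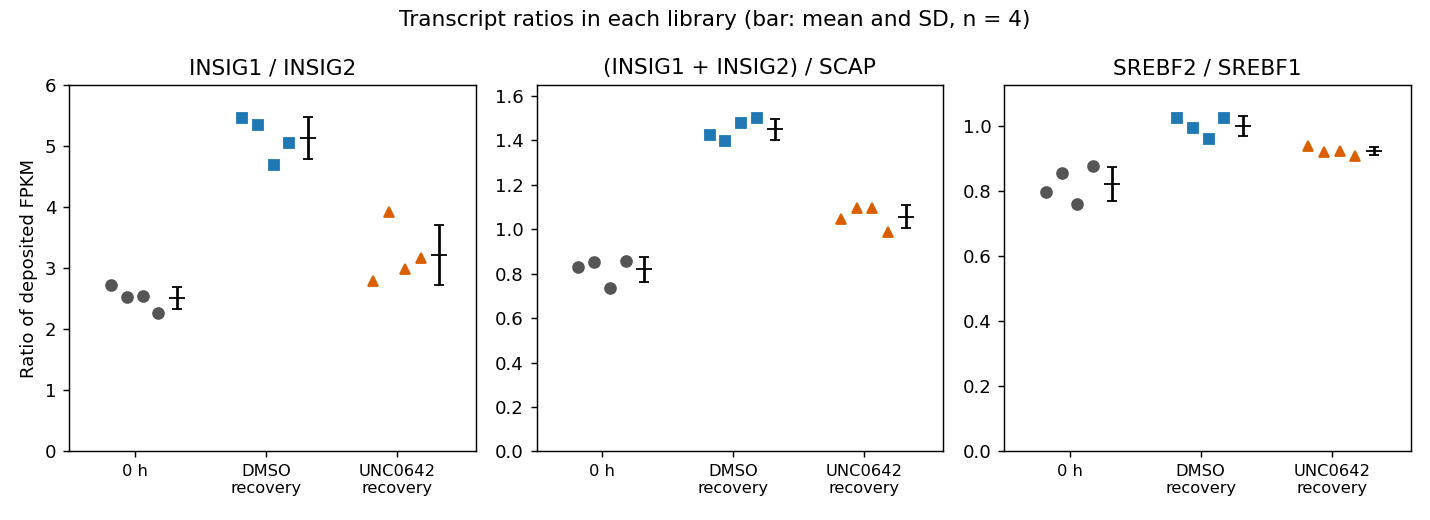
Ratios of deposited FPKM (vertical axes, from 0) in each library, by group; bars are the mean and SD of 4 libraries. INSIG1 over INSIG2 is highest in the DMSO recovery libraries, 4.69 to 5.46, and SREBF2 over SREBF1 rises above the 0 h range of 0.762 to 0.877 in both recovery groups.

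SREBF2 encodes SREBP-2, the main activator of sterol genes. At 0 h its levels were 125.5, 130.9, 124.1 and 135.5 CPM. After DMSO recovery they were 186.4, 181.1, 180.5 and 181.8 CPM, and after UNC0642 recovery 164.1, 173.9, 168.1 and 168.2 CPM. The 3 groups did not overlap and stood in the same order as those of INSIG1. DMSO recovery was 1.41-fold above 0 h (log2 fold change 0.50 ± 0.03; edgeR adjusted p = 1.18e-14) and UNC0642 recovery 1.31-fold above (0.39 ± 0.03; edgeR adjusted p = 6.34e-12). The difference between the recovery groups was small: SREBF2 fell by 7.63% with UNC0642 (log2 fold change -0.11 ± 0.03; edgeR adjusted p = 0.0202). That call was lost in 8 of 24 alternatives, over which the adjusted p ran from 0.0116 to 0.368 and the log2 fold change from -0.17 to -0.08. It was lost without DMSO replicate 1 (0.0649), UNC0642 replicate 1 (0.0819) or UNC0642 replicate 3 (0.0526), by log2 FPKM in limma (0.0769 and 0.0805 with pseudocounts of 1 and 0.1), without the 6 COL1A2 libraries (0.216) and within the long-gap (0.368) and short-gap (0.135) libraries.

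SREBF1 encodes SREBP-1a and SREBP-1c, the latter the main activator of fatty acid synthesis genes. Its levels at 0 h were 179.9, 175.5, 186.5 and 176.9 CPM. After DMSO recovery they were 208.7, 209.0, 215.3 and 203.6 CPM, and after UNC0642 recovery 200.2, 216.2, 208.5 and 212.1 CPM. All 8 recovery libraries were above all 0 h libraries, and the recovery groups overlapped. The rise was 1.16-fold in both (log2 fold change 0.22 ± 0.03 each; edgeR adjusted p = 3.39e-07 for DMSO and 2.73e-07 for UNC0642). Against each other they differed by a log2 fold change of 0.00, with a 95% interval of -0.06 to 0.06. The FPKM ratio of SREBF2 to SREBF1 was 0.823 ± 0.0522 at 0 h, 1.00 ± 0.0298 with DMSO and 0.924 ± 0.0123 with UNC0642, with no overlap of the groups. The counts do not separate the SREBP-1a and SREBP-1c transcripts.

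STARD4 encodes a soluble protein that carries cholesterol between membranes. At 0 h its levels were 12.9, 14.7, 14.9 and 15.8 CPM. After DMSO recovery they were 20.6, 23.1, 22.0 and 24.0 CPM, and after UNC0642 recovery 19.1, 22.5, 20.1 and 18.4 CPM. Every recovery library was above every 0 h library, while the recovery groups overlapped. The rise was 1.54-fold after DMSO recovery (log2 fold change 0.62 ± 0.08; edgeR adjusted p = 5.53e-08) and 1.38-fold after UNC0642 recovery (0.46 ± 0.08; edgeR adjusted p = 1.10e-05). With UNC0642 against DMSO, STARD4 missed the threshold (log2 fold change -0.16, 95% interval -0.31 to -0.02; edgeR adjusted p = 0.217). Within the short-gap libraries its rises were smaller, 0.42 and 0.28, and within the long-gap libraries larger, 0.74 and 0.63, all called.

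SCAP, the escort gene, ran from 90.4 to 99.3 CPM at 0 h, from 93.1 to 96.6 with DMSO and from 95.3 to 97.8 with UNC0642, and the groups overlapped. Its log2 fold changes were 0.01 (95% interval -0.06 to 0.08), 0.04 (-0.03 to 0.11) and, between the recovery groups, 0.03 (-0.04 to 0.10). SCAP was called after UNC0642 recovery with library totals (0.10; edgeR adjusted p = 0.0233) and by log2 FPKM in limma (0.09 with a pseudocount of 1).

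MBTPS1, the site-1 protease gene, ran from 169.5 to 182.9 CPM at 0 h, from 163.0 to 171.3 with DMSO and from 168.5 to 171.9 with UNC0642. The 0 h libraries reached highest, but the groups overlapped. The DMSO difference was at the edge of the threshold: a log2 fold change of -0.07 ± 0.03 (95% interval -0.13 to -0.01; edgeR adjusted p = 0.0558), which 6 of 24 alternatives called, over an adjusted p of 0.00221 to 0.776. MBTPS2, the site-2 protease gene, ran from 30.3 to 37.1 CPM at 0 h, from 29.4 to 34.8 with DMSO and from 31.8 to 36.5 with UNC0642. Those ranges overlapped, and its 95% intervals were -0.22 to 0.05, -0.14 to 0.12 and, between the recovery groups, -0.06 to 0.21.

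**Figure D4:**
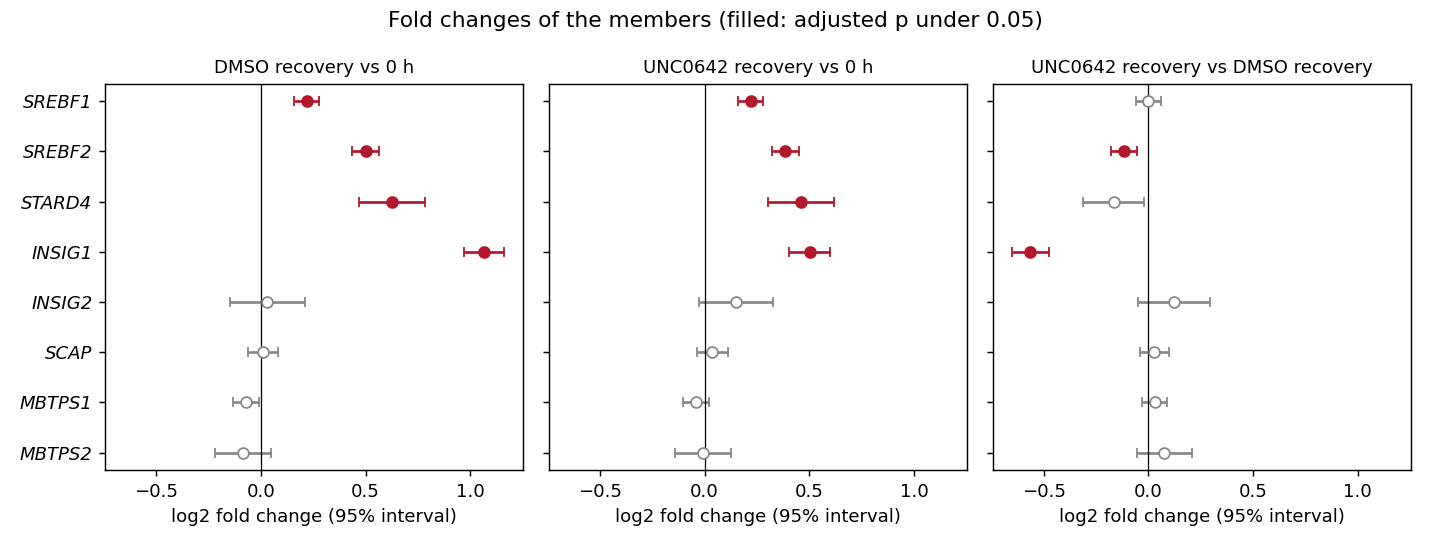
Log2 fold change of each member in the 3 comparisons (horizontal axes), with 95% intervals from the edgeR fit; filled points have an adjusted p under 0.05. SREBF1, SREBF2, STARD4 and INSIG1 are filled in both comparisons with 0 h, and INSIG1 and SREBF2 in UNC0642 against DMSO recovery.

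RSEM, the counting program, also gives each gene a length averaged over its transcripts by their estimated share, which can differ between libraries only for SREBF1 (2 transcripts) and INSIG1 (3). The INSIG1 length was 2943 ± 11.4 bases at 0 h, 2956 ± 7.32 with DMSO and 2960 ± 7.28 with UNC0642 (SD, n = 4). For SREBF1 it was 4917 ± 0.983, 4920 ± 2.50 and 4920 ± 2.09 bases. By a two-sided exact permutation test, SREBF1 in UNC0642 recovery against 0 h reached the smallest p that 4 against 4 allows, 0.0286 (adjusted p = 0.114 over 6 tests). A single comparison could not pass that adjustment at this number of libraries, so these lengths are given as values.

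Genes of sterol synthesis, classical SREBP-2 targets, were mostly higher after recovery. Over all genes, 22.4% rose after DMSO recovery, 23.4% rose after UNC0642 recovery and 2.53% fell between the recovery groups. Of 21 tested, 18 rose and 1 fell after DMSO recovery, with a median log2 fold change of 0.38. After UNC0642 recovery 14 rose and 3 fell, with a median of 0.18. With UNC0642 against DMSO, 12 fell and 9 missed the threshold (median -0.22); no gene rose, whether by an unadjusted p under 0.05, DESeq2 or limma-voom (0 in each). HMGCS1, which makes the precursor of mevalonate, changed by 0.74 ± 0.04 after DMSO recovery and by -0.45 ± 0.04 between the recovery groups. FDFT1, the squalene synthase gene, changed by 0.64 ± 0.04 and -0.40 ± 0.04 in those comparisons. DHCR7, which acts at the end of the pathway, changed by 0.57 ± 0.03 and -0.32 ± 0.03, and by 0.25 ± 0.03 after UNC0642 recovery. TM7SF2 rose by 0.85 ± 0.09 after DMSO and 0.82 ± 0.09 after UNC0642 recovery, and was not called between them (-0.03 ± 0.08). MVD rose by 0.59 ± 0.04 and 0.36 ± 0.04, and was lower with UNC0642 than with DMSO (-0.22 ± 0.04). Without the 6 COL1A2 libraries, 8 rose and 0 fell after UNC0642 recovery, and 11 fell between the recovery groups. With library totals, 0 fell after UNC0642 recovery.

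Genes of fatty acid synthesis and desaturation, classical SREBP-1 targets, were also mostly higher. Of 16, 14 rose and 2 fell after DMSO recovery (median 0.29), and 11 rose and 1 fell after UNC0642 recovery (median 0.14). Over all genes, 22.4% and 23.4% rose in these comparisons, and 2.53% fell between the recovery groups. With UNC0642 against DMSO, 9 fell and 7 missed the threshold (median -0.13); none rose by an unadjusted p under 0.05, DESeq2 or limma-voom (0 in each). SCD, the stearoyl-CoA desaturase gene, changed by 0.77 ± 0.02 and 0.53 ± 0.02 from 0 h with DMSO and UNC0642, and by -0.24 ± 0.02 between them. FASN, the fatty acid synthase gene, changed by 0.54 ± 0.03, 0.35 ± 0.03 and -0.19 ± 0.03. ELOVL5, an elongase gene, rose by 0.50 ± 0.03 and 0.48 ± 0.03 after DMSO and UNC0642 recovery. ACACA, the acetyl-CoA carboxylase gene, rose by 0.27 ± 0.03 and 0.10 ± 0.03, and changed by -0.17 ± 0.03 between the recovery groups. Without the 6 COL1A2 libraries, 6 rose after UNC0642 recovery and 4 fell between the recovery groups, where 4 fell within the long-gap and 3 within the short-gap libraries.

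**Figure D5:**
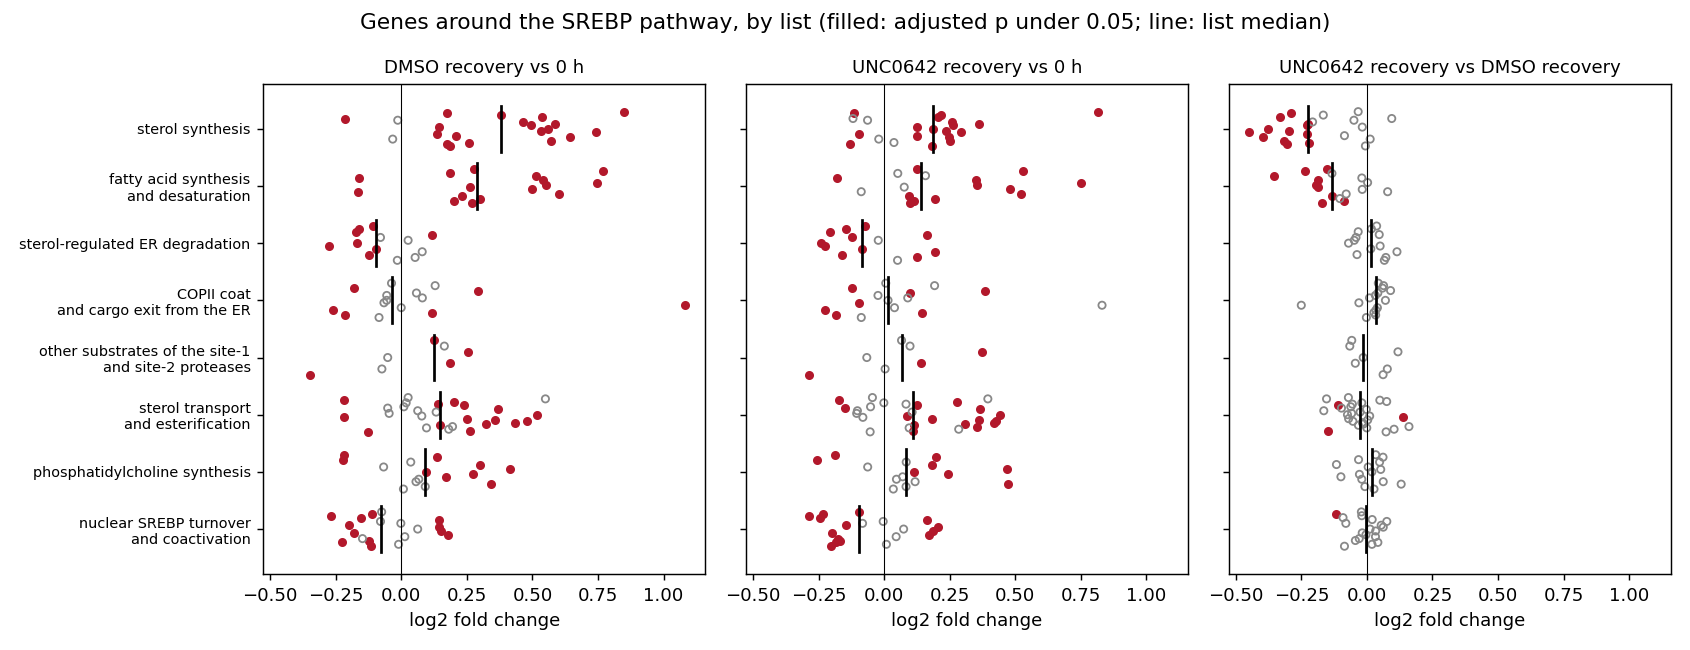
Log2 fold changes (horizontal axes) of the tested genes of 8 lists around the SREBP pathway in the 3 comparisons; each point is a gene, filled where the adjusted p is under 0.05, and the bar is the list median. The medians of sterol synthesis and fatty acid synthesis are 0.38 and 0.29 after DMSO recovery and -0.22 and -0.13 between the recovery groups.

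Further lists covered the machinery that retains, carries or removes these proteins. Their called shares are to be read beside the 44.1% and 47% of all genes called after DMSO and UNC0642 recovery. Between the recovery groups that share was 4.58%. Of 13 genes of sterol-regulated ER degradation, which destroys INSIG proteins and sterol enzymes, 1 rose and 7 fell after DMSO recovery (median -0.10) and 3 rose and 8 fell after UNC0642 recovery (median -0.08). That direction depended on scaling: with library totals 3 rose and 3 fell after DMSO recovery, and 4 rose and 4 fell after UNC0642 recovery. The ubiquitin ligase gene RNF145 changed by -0.17 ± 0.03 after DMSO and -0.24 ± 0.03 after UNC0642 recovery. RNF139, another ligase gene, changed by -0.27 ± 0.05 and -0.22 ± 0.05 in the same order. ERLIN1, a gene of an ER scaffold protein, changed by -0.12 ± 0.03 after DMSO and -0.16 ± 0.03 after UNC0642 recovery. UBE2G2, a ubiquitin-conjugating enzyme gene, rose by 0.12 ± 0.03 and 0.16 ± 0.03. VCP, whose product pulls proteins out of the ER membrane, changed by -0.11 ± 0.02 after DMSO recovery, a call lost in 3 of 24 alternatives. After UNC0642 recovery VCP changed by -0.07 ± 0.02.

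Of 15 genes of the COPII coat, which carries the SCAP complex to the Golgi, 3 rose and 3 fell after DMSO recovery and 3 rose and 4 fell after UNC0642 recovery. SEC13 changed by -0.26 ± 0.03 and -0.22 ± 0.03, SAR1A by -0.22 ± 0.03 and -0.18 ± 0.03, and the cargo adaptor gene SEC24D by 0.29 ± 0.06 and 0.38 ± 0.06. These counts are near the share over all genes and varied with the setting: with library totals 5 rose and 3 fell after DMSO and 6 rose and 2 fell after UNC0642 recovery. When the 6 COL1A2 libraries were left out, 0 rose and 2 fell after DMSO and 0 rose and 1 fell after UNC0642 recovery, and with the length trend removed 7 fell after DMSO recovery and 1 rose after UNC0642 recovery. Of 7 tested genes listed as other substrates of these proteases, 3 rose and 1 fell after DMSO recovery and 2 rose and 1 fell after UNC0642 recovery. ATF6, a sensor of unfolded proteins in the ER, changed by -0.35 ± 0.06 and -0.29 ± 0.06, and CREB3L2, a related membrane-bound factor, by 0.25 ± 0.05 and 0.37 ± 0.05.

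In sterol transport and esterification, the list nearest to STARD4, 12 of 27 tested genes rose and 3 fell after DMSO recovery (median 0.15), and 13 rose and 2 fell after UNC0642 recovery (median 0.11). LRP8, a lipoprotein receptor family gene, rose by 0.48 ± 0.04 and 0.43 ± 0.04, and OSBPL10, of the oxysterol-binding family, by 0.52 ± 0.05 and 0.44 ± 0.05. SCARB1, the high-density lipoprotein receptor gene, rose by 0.24 ± 0.03 after DMSO and 0.13 ± 0.03 after UNC0642 recovery. OSBPL5 rose by 0.37 ± 0.06 in each. UNC0642 against DMSO, 1 rose and 2 fell: NPC2 (0.14 ± 0.04), SCARB1 (-0.11 ± 0.03) and GRAMD1A (-0.15 ± 0.04), calls lost in 11, 10 and 15 of 24 alternatives. Without the 6 COL1A2 libraries, 7 rose after DMSO recovery and 5 after UNC0642 recovery.

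Phosphatidylcholine synthesis uses methyl groups from methionine in 1 of its branches and is known to feed back on SREBP-1. Of 15 tested genes, 7 rose and 2 fell after DMSO recovery (median 0.09) and 6 rose and 2 fell after UNC0642 recovery (median 0.08). PEMT, the gene of that methyl-using branch, was not called after DMSO (0.04 ± 0.07) or UNC0642 recovery (0.08 ± 0.07), nor between them (0.05 ± 0.06). LPCAT3, which remodels phosphatidylcholine, rose by 0.42 ± 0.04 and 0.47 ± 0.04, and PCYT2, of phosphatidylethanolamine synthesis, by 0.30 ± 0.04 and 0.18 ± 0.04, while the choline transporter family gene SLC44A2 changed by -0.22 ± 0.04 and -0.19 ± 0.04. Of 19 genes of nuclear SREBP import, turnover and coactivation, 4 rose and 8 fell after DMSO recovery, and 4 rose and 10 fell after UNC0642 recovery, while with library totals 5 rose and 5 fell after DMSO and 6 rose and 7 fell after UNC0642 recovery. KPNB1, the importin that carries SREBP-2, changed by -0.18 ± 0.02 and -0.20 ± 0.02, and LMNA, of the nuclear lamina, by 0.15 ± 0.02 and 0.19 ± 0.02. The coactivator gene CREBBP changed by -0.23 ± 0.03 after DMSO and -0.18 ± 0.03 after UNC0642 recovery. SP1 changed by -0.11 ± 0.03 after DMSO and -0.23 ± 0.03 after UNC0642 recovery. It was the 1 gene of this list called between the recovery groups (-0.12 ± 0.03, edgeR adjusted p = 0.0265, lost in 12 of 24 alternatives).

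Between the recovery groups no gene was called in the lists of ER degradation, COPII, protease substrates or phosphatidylcholine synthesis, by edgeR, DESeq2 or limma-voom (0 in each). At an unadjusted p under 0.05, 2 rose and 1 fell in the first, 1 rose in the second, 1 rose in the third and 1 fell in the fourth. Without the 6 COL1A2 libraries the counts of genes that fell in ER degradation were 3 after DMSO and 3 after UNC0642 recovery, those that rose in phosphatidylcholine synthesis were 3 and 3, and those that fell in the nuclear list were 4 and 5.

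Of 9858 candidate genes (average log2 CPM 3 or more), those whose pattern over the 12 libraries was nearest to INSIG1 were TRIM2, SCNN1A, HMGCS1, SCD and FAM131C. The measure was the root-mean-square difference of log2 CPM after centring each gene, 0.0890 for TRIM2 and 0.169 for FAM131C, where INSIG1 itself varied by 0.438. TRIM2 changed by 0.94 and 0.47 from 0 h with DMSO and UNC0642 and by -0.47 between them, and SCNN1A by 0.79, 0.42 and -0.37. The nearest to SREBF2 were TTC19, ZNF618, IFITM2, CD44 and CDH3 (0.0385 to 0.0479, beside its own 0.217). For STARD4 they were UBASH3B, TNK2, MAST1, RHOBTB3 and NOTCH3 (0.0777 to 0.0910, beside 0.280). For SREBF1 they were GIT1, MPZL1, C14orf4, SEPT9 and KRT19 (0.0264 to 0.0346, beside 0.109). Only the INSIG1 list held genes of sterol or fatty acid synthesis from the lists above, HMGCS1 and SCD. All of these genes share the 12 libraries and their depth, and the ranking is a description.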

How the data were processed

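The deposited tables hold expected counts, FPKM, TPM and gene and effective lengths for each library; the authors made them with RSEM 1.2.4 and Bowtie on hg18, per the submitters' processing notes. Total RNA was extracted with Trizol, per the labels' protocols. Expected counts as deposited (53.3% to 57.6% of nonzero values whole within 0.005) were rounded to whole numbers. All 12 libraries entered 1 edgeR 4.0.16 fit (R 4.3.3) with filterByExpr, TMM scaling and a mean per group, and quasi-likelihood F-tests with Benjamini-Hochberg adjustment over 12741 genes. The FPKM the authors deposited were used only to compare levels between genes, for ratios and in limma 3.58.1 as an alternative; lengths the authors deposited served for the gap and the isoform check. DESeq2 1.42.0 and limma-voom were further alternatives. The biological coefficient of variation over all genes was 3.44%. Depth limits the members with few counts: per library INSIG2 had 177 to 316 counts, STARD4 213 to 490 and MBTPS2 436 to 709.

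Counts of each of the 18 within-group pairs of libraries were compared by chi-square (2.03 to 3.48 per degree of freedom), above sampling noise, so no library was treated as a duplicate. The members, gene lists and markers were chosen with earlier results of these data known. Of each list the text may name the 3 genes with the smallest p in a comparison, and for 4 members the 5 genes nearest in pattern. Of the listed genes, 7 were not tested for low counts. Promoter windows are from RefSeq on GRCh38.p14, not on the build of the counts.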

Additional observations from a re-analysis of the deposited data

How the results depend on the processing

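The rises of SREBF1, SREBF2, INSIG1 and STARD4 over 0 h and the fall of INSIG1 between the recovery groups were called in all 24 alternatives of each comparison (INSIG1 1.03 to 1.12, 0.46 to 0.56 and -0.66 to -0.49). Of the members, 1 and not 2 was called between the recovery groups by log2 FPKM with either pseudocount, without the 6 COL1A2 libraries and within the long-gap or short-gap libraries, and 1 to 2 with a library left out; the one lost was SREBF2. Over all genes the calls between the recovery groups were 584, and 375 by log2(FPKM + 0.1), 271 within long-gap and 125 within short-gap libraries. Within short-gap libraries 2702 genes were called after DMSO recovery, against 5617. Without the 6 COL1A2 libraries the calls were 2987, 2836 and 277, with fewer samples. Library totals moved the share of calls that were higher from 50.8% to 67.5% after DMSO and from 49.8% to 67.5% after UNC0642 recovery, and log2(FPKM + 1) to 68.5% and 67.3%.

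Members that were not called changed sign in some alternatives; the cause was not tested. After UNC0642 recovery MBTPS1 was at 0.019 and MBTPS2 at 0.051 with library totals, 0.020 and 0.049 by log2(FPKM + 1), and 0.020 and 0.055 by log2(FPKM + 0.1); MBTPS2 was at 0.039 within long-gap libraries and -0.062 to 0.033 with a library left out. INSIG2 without the 6 COL1A2 libraries was at -0.11 after DMSO and -0.041 after UNC0642 recovery. The only 0 h library there was replicate 4, which had the highest INSIG2 level at 0 h, 14.5 CPM. Within short-gap libraries, where DMSO replicate 1 is alone, INSIG2 was at -0.078 after DMSO recovery. With a library left out, INSIG2 ran from -0.0072 to 0.081 and SCAP from -0.011 to 0.035 after DMSO recovery, where SCAP was at -0.031 with the length trend removed. Between the recovery groups SCAP was at -0.00044 within short-gap libraries. SREBF1 there was at -0.0018 with effective-length offsets, -0.0075 without the 6 libraries, -0.018 within short-gap libraries and -0.015 to 0.021 with a library left out; its averaged length differed by -1.10 to 0.93 bases.

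MBTPS1 was called lower after DMSO recovery with RLE factors (-0.07, edgeR adjusted p = 0.0425) and by DESeq2 (DESeq2 adjusted p = 0.0448). The same call was made without 0 h replicate 1, 0 h replicate 4 or DMSO replicate 2. With the length trend removed, a setting tested in limma, it was called lower after DMSO recovery (-0.11, limma adjusted p = 0.00221). In that setting MBTPS1 was also called lower after UNC0642 recovery (-0.07, limma adjusted p = 0.0398). The settings within a gap class and the removal of a length trend were added after the data were seen. Replicate numbers did not pair the libraries: over 12 same-numbered pairs the correlation of deviations ran from -0.103 to 0.0445, and 0 of 12 libraries correlated best with its own number. A replicate block gave 4, 4 and 2 members and 5668, 5998 and 633 genes called.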
